A study of Mus musculus with 3 samples.

Results

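Antisense RNA genes, that is, genes annotated on the strand opposite a protein-coding gene or in its immediate neighbourhood, were examined in chromatin-associated RNA of mouse macrophages. The 97 genes described here were chosen by annotation and by abundance: each had at least 1 transcript of type antisense, none of type protein_coding or lincRNA, and a mean expected count of at least 200 over 3 libraries. They were selected from 3063 antisense genes (3.17%) and from 55536 genes in all. Gas5 and host genes named Snhg or Mir-hg were left out by the rule. Because the mean count chose the genes, their levels are given as a description with no test. Just inside the limit lay Gm37787, 4930430E12Rik and Gm45515 with mean counts of 200.1, 206.0 and 207.0, and just outside lay Dnmt3aos, Gm48342 and AC166172.3 with 199.3, 197.7 and 197.5.

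The cells were bone marrow-derived macrophages of strain C57BL/6J, exposed to Lipid A, the membrane anchor of lipopolysaccharide and the ligand of Toll-like receptor 4, at 100 ng/ml for 25 min. RNA of the chromatin fraction was depleted of ribosomal RNA and sequenced. The series analysed here held 1 group of 3 libraries, made from 1000, 250 and 500 ng of RNA in the order of replicates 1 to 3, and no unstimulated libraries were analysed here, so no effect of Lipid A could be measured. All 3 libraries carried the same donor label and separate biosample labels, and the labels gave neither age nor sex. Nothing said that they came from separate animals, so p-values measure only the spread between these samples, which may be technical.

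Antisense transcription produces RNA complementary to all or part of a neighbouring gene, and many such RNAs stay in the nucleus on chromatin, which makes a chromatin fraction a suitable place to look for them. Some have known roles in cis: Kcnq1ot1 and Airn are long imprinted transcripts that silence genes of their clusters on the same chromosome, while Zfas1 hosts box C/D small nucleolar RNAs in its introns. Chromatin RNA also holds unspliced precursor RNA in quantity, so reads also fall in introns, and an antisense gene that lies inside another gene shares its interval with those introns.

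The libraries held 13318787, 19162053 and 19147923 counts on annotated genes in replicates 1, 2 and 3. All 8 macrophage markers were at or above 1 TPM (a level per length, scaled to the same total in each library) with summed levels of 1788 to 2570 TPM, whereas 1 of 20 markers of neutrophils, lymphocytes, erythroid, stromal and endothelial cells reached 1 TPM, their summed levels were 4.89 to 6.44 TPM and 9 of them were at 0. The 3 gene models Gm26917, Gm42418 and CT010467.1, on ribosomal RNA-like sequence, took 8.59%, 27.2% and 23.2% of the counts in replicates 1, 2 and 3, so TPM values of other genes are compressed in replicates 2 and 3. Plain ratios of TPM between genes of one library do not depend on that share. The log2 ratios given below add 1 to each TPM, so those against a partner near 0 do depend on it.

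RefSeq promoters (GRCm38.p6, 250 bases before to 50 after the start) matched 37 of the 97 genes and 78 of their partners. The start regions shown are of the 5 antisense genes whose partners are NF-kB target genes, a pair of genes that start close to their partners (Zfas1 and Tug1), and Pim1, which faces Gm26885. A second promoter of Pim1 in the table, with 5 CpG pairs and no match, is not printed. Lower case is the plain sequence, 5′ to 3′ on the gene's own strand, and capitals mark letters that match a searched motif on either strand.

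Gm16712 (partner Ebi3), chr17:55959352-55959651, minus strand: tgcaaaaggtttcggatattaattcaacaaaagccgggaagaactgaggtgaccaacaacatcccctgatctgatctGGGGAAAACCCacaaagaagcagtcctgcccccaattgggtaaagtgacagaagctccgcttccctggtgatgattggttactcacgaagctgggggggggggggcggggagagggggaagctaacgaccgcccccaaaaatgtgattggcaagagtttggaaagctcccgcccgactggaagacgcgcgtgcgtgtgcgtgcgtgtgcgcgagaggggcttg
Gm26885 (partner Pim1), chr17:29491495-29491794, minus strand: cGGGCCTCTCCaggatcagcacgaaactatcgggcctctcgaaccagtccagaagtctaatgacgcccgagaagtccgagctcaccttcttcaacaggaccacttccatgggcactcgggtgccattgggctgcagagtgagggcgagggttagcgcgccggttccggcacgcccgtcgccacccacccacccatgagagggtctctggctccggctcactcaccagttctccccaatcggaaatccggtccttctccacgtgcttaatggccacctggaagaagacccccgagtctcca
Pim1, chr17:29490535-29490834, plus strand: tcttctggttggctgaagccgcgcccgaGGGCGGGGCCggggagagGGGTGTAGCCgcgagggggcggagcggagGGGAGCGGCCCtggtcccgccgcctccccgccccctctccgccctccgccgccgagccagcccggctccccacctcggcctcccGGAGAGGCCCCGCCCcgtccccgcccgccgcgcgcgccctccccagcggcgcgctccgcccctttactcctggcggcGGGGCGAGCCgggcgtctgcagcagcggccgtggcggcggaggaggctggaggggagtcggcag
Gm40578 (partner Tnfaip2), chr12:111502660-111502959, minus strand: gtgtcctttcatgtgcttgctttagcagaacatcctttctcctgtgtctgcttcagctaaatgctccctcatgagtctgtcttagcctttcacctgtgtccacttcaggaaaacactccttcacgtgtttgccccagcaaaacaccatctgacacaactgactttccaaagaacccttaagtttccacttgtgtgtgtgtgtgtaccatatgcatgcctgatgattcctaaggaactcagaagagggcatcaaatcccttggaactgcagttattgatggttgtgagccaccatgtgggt
Gm10634 (partner Bcl2a1d), chr9:88747623-88747922, plus strand: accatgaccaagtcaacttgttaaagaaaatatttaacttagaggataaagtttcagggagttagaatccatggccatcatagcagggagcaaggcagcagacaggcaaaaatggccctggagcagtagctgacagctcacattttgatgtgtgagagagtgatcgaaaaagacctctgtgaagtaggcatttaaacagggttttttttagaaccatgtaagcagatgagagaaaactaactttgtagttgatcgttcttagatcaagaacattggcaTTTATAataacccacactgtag
Gm20234 (partner Slfn2), chr11:83067651-83067950, minus strand: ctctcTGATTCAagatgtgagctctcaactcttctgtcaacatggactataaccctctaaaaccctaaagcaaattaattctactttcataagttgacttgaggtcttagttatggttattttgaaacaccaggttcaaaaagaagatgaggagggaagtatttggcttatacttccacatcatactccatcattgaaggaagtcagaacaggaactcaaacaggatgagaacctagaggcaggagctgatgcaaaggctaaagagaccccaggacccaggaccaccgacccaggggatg
Zfas1 (partner Znfx1), chr2:167062684-167062983, plus strand: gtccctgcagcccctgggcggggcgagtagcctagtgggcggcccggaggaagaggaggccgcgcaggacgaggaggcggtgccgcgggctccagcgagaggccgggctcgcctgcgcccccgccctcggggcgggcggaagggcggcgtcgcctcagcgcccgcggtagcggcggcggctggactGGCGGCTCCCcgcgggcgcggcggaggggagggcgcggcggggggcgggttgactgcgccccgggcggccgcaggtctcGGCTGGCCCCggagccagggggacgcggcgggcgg
Tug1 (partner Morc2a), chr11:3648765-3649064, minus strand: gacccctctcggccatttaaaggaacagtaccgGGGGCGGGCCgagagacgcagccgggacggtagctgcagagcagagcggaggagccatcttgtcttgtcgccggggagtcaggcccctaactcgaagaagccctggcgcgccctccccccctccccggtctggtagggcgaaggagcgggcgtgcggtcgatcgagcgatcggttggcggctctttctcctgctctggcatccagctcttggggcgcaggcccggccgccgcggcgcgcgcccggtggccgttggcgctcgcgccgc

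The searched motifs were a loose kB pattern (3 G and 2 C with 5 free bases between them), AP-1 (TGANTCA), CRE (TGACGTCA), PU.1 (GAGGAAGT), the core of the interferon-stimulated response element (a pair of GAAA with 2 free bases between them) and the TATA box (TATAAA), each on both strands. The kB letters were common: 50.8% of 32851 promoters of the same length held them, against 54.3% of the 46 promoters of the antisense genes and 58.8% of the 114 promoters of their partners. AP-1 letters were in 2.17% of the antisense promoters and 7.81% of all, and the interferon element core in 8.70% and 3.44%. PU.1 letters were in 4.35% and 3.20%, TATA box letters in 10.9% and 13.6%, and CRE letters in 0 of 46 and 1.79%. The motif matches in these windows are a description and mark no site. RefSeq placed the start of Gm16712 20 bases from its GENCODE start, that of Zfas1 at the same base, that of Gm26885 381 bases, that of Tug1 859 bases, that of Gm40578 1869 bases, that of Gm20234 3546 bases and that of Gm10634 28244 bases away. CpG pairs numbered 47 in the Zfas1 window, 37 in that of Tug1, 42 in that of Pim1, 21 in that of Gm26885, 17 in that of Gm16712, 2 in that of Gm10634 and 1 each in those of Gm20234 and Gm40578. No letters matched in the Gm40578 window, and only those of the TATA box in that of Gm10634. The median was 7 over the antisense promoters, 7 over all promoters and 19 over the partners' promoters.

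The positions of the 97 genes relative to protein-coding genes on the opposite strand fell into few kinds. In the annotation, 53 lay entirely inside their sense partner, 19 overlapped it tail to tail, 17 overlapped it head to head, 5 contained it and 3 had none. The partner is here the opposite-strand protein-coding gene with the longest overlap. The 94 genes with a partner had 92 distinct partners, since Lrmda and Arhgap10 each had 2. None was divergent without overlap within 5000 bases. Of the 97, 60 had at most 10% of their exon bases outside gene bodies of the opposite strand, and 7 had at least 90% outside: Tug1, Gm49774, Zfas1, 1600020E01Rik, Gm26982, 4930430E12Rik and F630028O10Rik. Overlap of exons with exons of the opposite strand varied: 36 genes had none at all and 3 had over 50%, namely Gm26759, Gm37787 and Gm45187. The rest, which are most of the 97, lay between these limits. The gene models had a median of 2782 exon bases; 12 had 1 exon, 33 had 2 exons, the rest had more, and the highest number was 26 in Gm10634.

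The antisense genes together held 0.727%, 0.437% and 0.445% of all counts in replicates 1, 2 and 3, and without the 3 ribosomal-like models 0.795%, 0.600% and 0.579%. Kcnq1ot1, a single unspliced model of 93092 bases (chr7:143203458-143296549, minus strand), supplied 31.4% to 36.5% of those counts. Per length it was not among the most abundant, at 57.7, 35.7 and 33.0 TPM. The median level was 30.1 TPM over the 97 genes, 26.4 TPM over 92 lincRNA genes and 41.4 TPM over 6004 protein-coding genes chosen by the same minimum count. Levels ran from 3.30 TPM for Gm49774 to 572.5 TPM for Gm40578, with 8 genes at or above 100 TPM and 31 below 20 TPM.

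**Figure D1:**
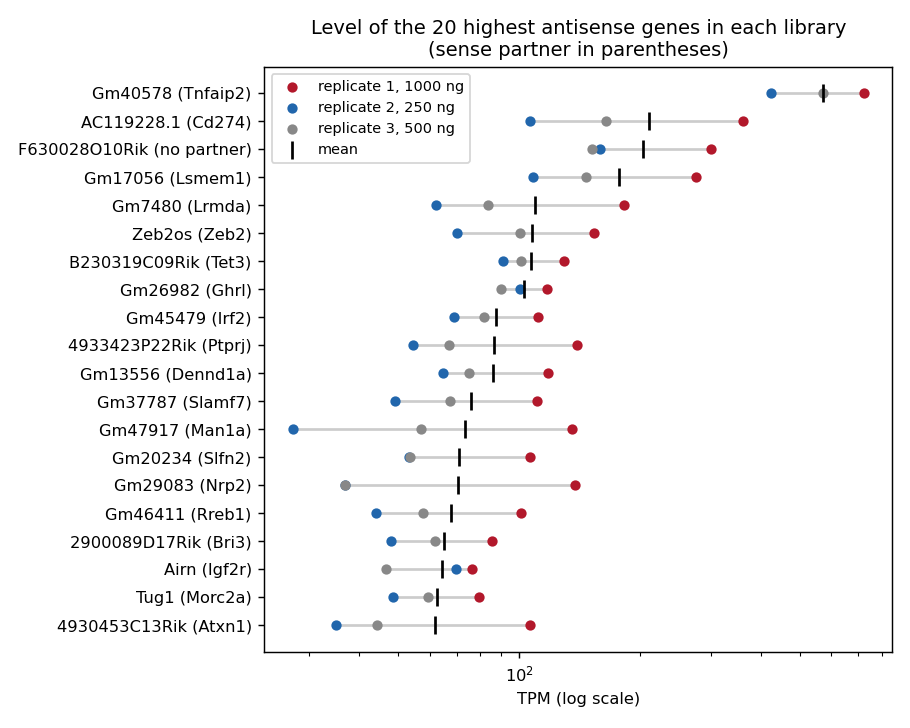
TPM (log axis) of the 20 antisense genes with the highest mean, 1 point for each library, a tick for the mean and a grey line over the range; the sense partner stands in parentheses. Gm40578 sits apart at 424 to 723 TPM, and replicate 1 is the highest point in every row on this scale, but not for Airn and Gm26982 after the TMM scaling used in the slopes.

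Gm40578 (ENSMUSG00000113029.1, chr12:111450405-111500840, minus strand) overlaps the end of Tnfaip2, which encodes a protein induced by tumour necrosis factor, tail to tail. It reached 723, 424 and 571 TPM in replicates 1, 2 and 3, and Tnfaip2 4994, 1965 and 2812 TPM. It was the highest antisense gene in all 3 libraries and was 5.69-fold below its partner. Of its 2 transcripts, 1 of 920 bases held 100% of the level in every library. Its exon bases met opposite-strand exons over 29.4%.

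AC119228.1 (ENSMUSG00000117964.1, chr19:29373417-29384471, minus strand) lies inside Cd274, the gene of the immune checkpoint ligand PD-L1. It had 362, 107 and 165 TPM, and Cd274 had 344, 131 and 196 TPM. The antisense gene and its partner were thus at like levels, with a log2 ratio of -0.16 ± 0.20 (SD, n = 3).

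F630028O10Rik (ENSMUSG00000078122.4, chrX:96239926-96243636, plus strand) has no protein-coding gene on the opposite strand and contains Mir223, a microRNA of myeloid cells. It had 301, 159 and 152 TPM. The mature microRNAs of the hairpin (chrX:96242817-96242926, plus strand; RefSeq, GRCm38.p6) follow with the seed, bases 2 to 8, in capitals, because they are the known product of this transcript; the mature forms were not measured.
mmu-miR-223-3p: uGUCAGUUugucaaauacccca
mmu-miR-223-5p: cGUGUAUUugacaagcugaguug
In all, 4 of the 97 genes contain 6 annotated microRNA or small nucleolar RNA genes on their own strand: F630028O10Rik, Zfas1 with Snord12, Gm25878 and Gm23201, Gm47079 with Mir1900 and Tmcc3os with Mir7211.

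Gm17056 overlaps Lsmem1 head to head, with starts 834 bases apart, and had 276, 108 and 147 TPM. Lsmem1 had 0, 2 and 2.15 expected counts, so its level was near 0 while that of the antisense gene was the fourth highest. Gm7480 lies inside Lrmda and had 183, 62.2 and 83.5 TPM. Zeb2os lies inside Zeb2, a transcription factor gene of macrophages and other lineages, and had 153, 69.9 and 100.3 TPM, while Zeb2 had 2712, 1272 and 1474 TPM. Zeb2os was 16.9-fold below its partner in mean level.

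The other genes at the top of the list were B230319C09Rik inside Tet3, a gene of a methylcytosine dioxygenase, with 129.2, 91.4 and 101.3 TPM. Gm26982 overlaps the ghrelin gene Ghrl tail to tail and had 117.5, 100.5 and 89.95 TPM, with 99.7% of its single exon outside opposite-strand genes. Gm45479, inside the interferon regulatory factor gene Irf2, had 112, 68.7 and 82.0 TPM. 4933423P22Rik, inside the receptor phosphatase gene Ptprj, had 139, 54.3 and 66.7 TPM. In TPM replicate 1 was the highest library for each of these 4 genes, but after scaling by edgeR's trimmed mean of M-values (TMM) Gm26982 was highest in replicate 2, at 43.5, 47.1 and 38.9 counts scaled to equal totals (CPM) in replicates 1, 2 and 3.

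Levels of antisense genes and their sense partners differed widely between pairs. The median log2 ratio of the antisense gene to its partner, computed as log2((TPM + 1)/(TPM + 1)), was -1.55 over 94 pairs, and -1.48, -1.61 and -1.51 in replicates 1, 2 and 3. In 20 pairs the antisense gene was at or above its partner in mean TPM, in 18 of them in all 3 libraries, and in 15 pairs it was over 10-fold below. By position, the median log2 ratio was -1.67 for genes inside their partner, -1.62 for tail-to-tail pairs, -0.65 for head-to-head pairs and -0.36 for genes that contain their partner. Since a minimum count chose the antisense genes and not their partners, these ratios say nothing about antisense genes in general.

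**Figure D2:**
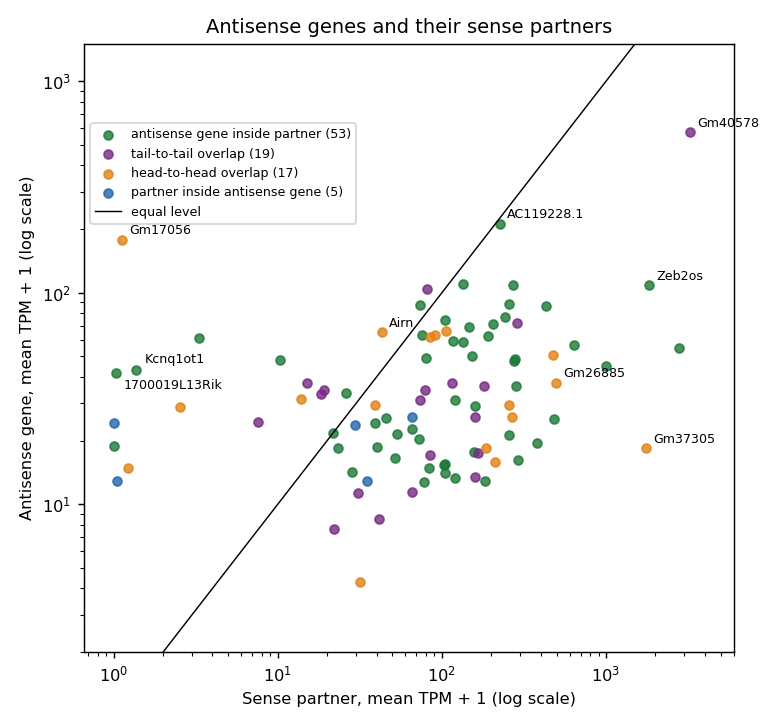
Mean TPM + 1 of each antisense gene against that of its sense partner, both on log axes, coloured by position, with a line of equal level. Most points lie below the line, and 20 of 94 are at or above it.

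Among the highest ratios the partner was close to silent. Kcnq1ot1 stood opposite Kcnq1, a potassium channel gene, which had 2, 12 and 2 expected counts, giving a log2 ratio of 4.97 ± 0.57 (SD, n = 3). 1700019L13Rik had 31.1, 38.0 and 53.1 TPM opposite Cx3cr1, the fractalkine receptor gene, which had 1, 1 and 0 expected counts. It also overlaps Csrnp1, and against that gene, at 128 TPM, the log2 ratio was -1.62. Gm47079 had 45.5, 6.65 and 17.4 TPM opposite Icam4, which is listed at 0 in all 3 libraries. The same gene also overlaps Icam1, an adhesion molecule gene, at 575 TPM. Etohd2 had 26.2, 13.3 and 14.04 TPM opposite Gm49354, listed at 0, and also overlaps Tut7 at 299 TPM. No fold is given against a partner listed at 0. Thus for 1700019L13Rik, Gm47079 and Etohd2 the place in the order depends on which overlapping gene is taken as the partner.

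The imprinted pair of Airn and Igf2r, which overlap head to head, had the antisense gene at 76.5, 69.7 and 46.7 TPM. Igf2r, the gene of the cation-independent mannose 6-phosphate receptor, had 34.4, 49.7 and 41.6 TPM. Airn was above Igf2r in all 3 libraries, with a log2 ratio of 0.59 ± 0.49 (SD, n = 3). Of the exon bases of Airn, 74.0% lay outside opposite-strand genes, and the rest met none of their exons.

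At the other end stood antisense genes of strongly expressed partners. Gm37305 starts 491 bases from Ccnl1, the cyclin L1 gene, head to head, and had 16.6, 15.4 and 20.3 TPM against 2652, 1221 and 1412 TPM of Ccnl1. Gm7008, inside Ifrd1, had 45.2, 51.2 and 65.0 TPM against 4437, 1594 and 2302 TPM. In both pairs the antisense gene was highest in replicate 3 and the partner in replicate 1. Gm2245 inside Fyb, an adaptor of immune receptor signalling, had a log2 ratio of -4.95 ± 1.21 (SD, n = 3), the widest spread of these 5 pairs. The ratios were -4.34 ± 0.31 (SD, n = 3) for Gm15478 inside the flippase gene Atp8a1 and -4.25 ± 0.24 (SD, n = 3) for Gm4279 inside Snx29.

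Partners that are NF-kB target genes were of interest because Lipid A activates NF-kB. Of 56 listed early NF-kB targets, 5 were partners of the antisense genes: Tnfaip2 of Gm40578, Ebi3 of Gm16712, Pim1 of Gm26885, Slfn2 of Gm20234 and Bcl2a1d of Gm10634. A sixth antisense gene, Gm47079, overlaps Icam1 of the same list. The share of all protein-coding genes that are partners was not computed, so whether 5 of 56 is unusual cannot be said. Of 41 listed macrophage identity genes, 1 was a partner, Zeb2, and no partner was on the lists of immediate early, interferon response, late inflammatory or Toll-like receptor 4 pathway genes. Gm16712, which faces the end of Ebi3, a gene of a subunit of interleukin 27, had 64.6, 16.5 and 28.7 TPM. Ebi3 had 21.3, 6.01 and 14.7 TPM, below the antisense gene in every library. Gm26885 and Pim1, a serine/threonine kinase gene, start 1172 bases apart and overlap head to head. Gm26885 had 29.9, 39.2 and 40.5 TPM and Pim1 658, 374 and 453 TPM, so the lowest library of the one was the highest of the other. Gm20234, which overlaps the end of Slfn2, had 106, 53.2 and 53.3 TPM, and Slfn2 421, 208 and 224 TPM. In that pair both genes were highest in replicate 1, and the log2 ratio was -1.99 ± 0.05 (SD, n = 3). Gm10634 contains Bcl2a1d, a gene of the anti-apoptotic A1 proteins whose near-identical copies make its counts uncertain, and had 40.1, 14.1 and 20.6 TPM against 134, 20.8 and 38.5 TPM.

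Of 49 antisense and related RNAs known by name, 37 were found under their symbols, 21 were of antisense type and 4 were abundant enough to be among the 97: Airn, Kcnq1ot1, Zeb2os and Zfas1. Zfas1 starts 81 bases from Znfx1, head to head, and had 96.2, 40.4 and 44.6 TPM against 99.0, 67.2 and 83.9 TPM. Its level was carried by transcripts of type retained intron, the main one with 32.9% of the gene's TPM, and its antisense-type transcript had 8.13%. Tug1 had 79.4, 48.5 and 59.4 TPM against 89.5, 90.5 and 88.5 TPM of Morc2a, with starts 482 bases apart. Ptgs2os, antisense to the prostaglandin synthase gene Ptgs2, had a mean of 5.33 counts, Tsix 6.11 and Nespas 4.

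How much of a level belongs to the antisense strand depends on the counting, and neither the labels nor the headers state a strand setting. The deposited notes list signal tracks that are not split by strand. Single-exon models of unclear coding status (TEC models) within introns served as a comparison, chosen after seeing the data. On the strand of a host gene at 20 TPM or more, 477 of them had a median of 12.9 TPM and a median log2 ratio to the host of -2.46, with the 5th to 95th percentile from -4.74 to -0.16. On the opposite strand, 64 had a median of 10.6 TPM and a log2 ratio of -2.93. The difference between the strands was not tested, and the middle ranges of the TPM values, 7.26 to 22.7 and 3.08 to 25.5 (25th to 75th percentile), overlapped.

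Antisense genes of any count within introns of such host genes on the opposite strand, 191 in all, had a median of 5.87 TPM and a log2 ratio of -3.47. That lower level depends on the counting. In a second set of transcript tables, with kallisto-type columns, the medians were 11.8 TPM for the 477 TEC models and 11.9 TPM for the 64. For the 191 antisense genes the median there was 12.5 TPM. The 60 antisense genes of the present set that lie within opposite-strand genes had a median log2 ratio of -1.68 to the highest gene around them, but the minimum count that chose them also set that value. With the same minimum count, 210 TEC models on the host strand had a median log2 ratio of -1.76. Those models were limited to a single surrounding gene at 20 TPM or more and to no exon overlap. The 60 antisense genes were not, so these medians are matched by count only. Over all 2938 antisense genes with a partner, whatever their count, the Spearman correlation of the 2 levels was 0.71, and it was 0.75 for the 1638 inside their partner and 0.49 for the 104 divergent ones, which share no interval with the partner. These correlations are across genes of the same libraries and are descriptions. The 186 antisense genes with over 75% of their exon bases in opposite-strand exons had a median of 0 TPM, and their partners 4.85 TPM. What these levels say about the strand of the reads was not tested. Whether the reads of a gene inside its partner come from its own strand cannot be told apart in these tables.

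**Figure D3:**
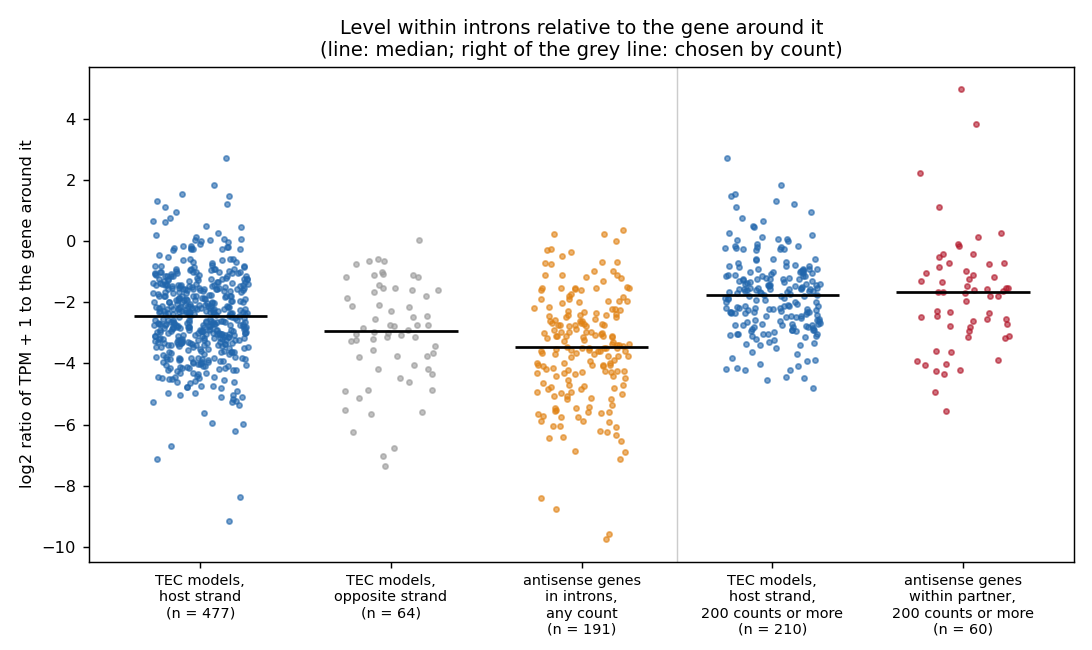
Log2 ratio of TPM + 1 to the gene around it, for TEC models within introns on the host strand (477) and the opposite strand (64), for antisense genes of any count in introns (191), and, right of the grey line, for TEC models on the host strand (210) and antisense genes within opposite-strand genes (60) chosen by a mean count of at least 200; each point is 1 gene and the black line is the median. The medians are -2.46, -2.93 and -3.47 without a minimum count and -1.76 and -1.68 with it. The groups right of the grey line are matched by count and not by exon overlap or by the level of the gene around them.

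The amount of RNA was the one labelled difference between the libraries, and it was tested as log2 amount in edgeR's quasi-likelihood test over 14108 genes with Benjamini-Hochberg adjustment. With 1 library for each amount and 1 residual degree of freedom, the amount and everything else that differs between the replicates cannot be told apart. At an adjusted p under 0.05, 20 of the 97 antisense genes were higher with more RNA and 0 were lower. Over all genes tested, 4.71% were called higher and 3.09% lower, and among genes with a mean count of at least 200 these shares were 7.07% and 4.59%. At an unadjusted p under 0.05, 33 antisense genes had higher and 5 lower values, beside 11.6% and 11.5% of all genes. DESeq2 called 9 higher and 0 lower, beside 3.05% and 1.07% of all genes it tested. On the kallisto-type counts edgeR called 8 and 0, beside 1.49% and 0.697% of all genes. The median slope was 0.20 (log2 per doubling of RNA) over the antisense genes and -0.01 over all genes, and 74 slopes were positive.

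The same term also called genes of the response lists, to differing extents. On the early NF-kB target list 34 of 52 tested genes were called higher, on the interferon response list 13 of 27 and on the late inflammatory list 4 of 9. On these lists 0 were called lower. Of 37 immediate early genes 9 were called higher and 3 lower. Of 30 Toll-like receptor 4 pathway genes 2 were higher and 0 lower, and of 41 macrophage identity genes 1 was higher and 3 were lower. Of 92 abundant lincRNA genes 16.3% were called higher and 2.17% lower. Of 210 TEC models within introns on the host strand with the same minimum count, 21.9% were called higher and 0.476% lower. After TMM scaling, replicate 1 was the highest library for 73 of the 97 antisense genes (75.3%), for 82.4% of those TEC models and for 41.8% of all genes with a mean count of at least 200. The median of the highest over the lowest library was 1.55 for the antisense genes, 1.58 for the TEC models and 1.37 for all genes of that count. The part of intronic reads in the slopes of the antisense genes was not tested.

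Of the 53 genes inside a partner 14 were called, and of the 5 that contain a partner 3. The calls were 2 of 17 head to head and 1 of 19 tail to tail. Over all 97 antisense genes 20 were called, and the difference between positions was not tested. Among the 60 genes with at most 10% of their exon bases outside opposite-strand genes 15 were called, and among the 7 with at least 90% outside 1 was, namely Zfas1.

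**Figure D4:**
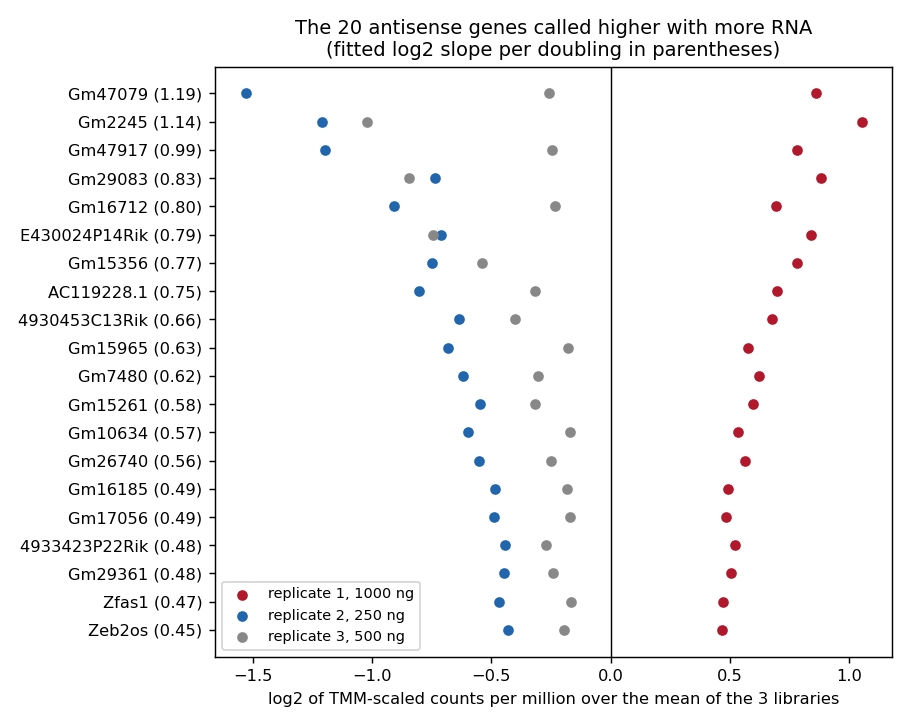
Log2 of TMM-scaled CPM over the mean of the 3 libraries for the 20 antisense genes called higher with more RNA, with the fitted slope in parentheses. Replicate 1 is the highest library in every row, and replicates 2 and 3 lie close together for Gm29083 and E430024P14Rik.

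Gm47079 had 58.4, 11.1 and 26.8 TMM-scaled CPM (counts scaled to the same total in each library) in replicates 1, 2 and 3, and the steepest slope, 1.19 ± 0.15 (SE; adjusted p = 1.28e-06, edgeR's quasi-likelihood test). Its exons met opposite-strand exons over 49.8%, and reads of the opposite strands cannot be told apart there without strand. Gm2245 had 120, 25.0 and 28.5 CPM on that scale, and a slope of 1.14 ± 0.15 (SE; adjusted p = 3.75e-06, edgeR). Its partner Fyb had a slope of 0.08 and an adjusted p of 0.75 in the same edgeR fit. Most of the slope of Gm2245 came from replicate 1: without it the slope was 0.18, and DESeq2 gave an adjusted p of 0.19.

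Gm47917 lies inside Man1a, a mannosidase gene of the Golgi, and had 43.4, 11.0 and 21.2 CPM. Its slope was 0.99 ± 0.15 (SE; adjusted p = 2.87e-05, edgeR), and leaving out any 1 replicate left it between 0.95 and 1.03. The order of its libraries followed the RNA amount. Gm29083, inside the semaphorin co-receptor gene Nrp2, had 28.5, 9.26 and 8.59 CPM and a slope of 0.83 ± 0.18 (SE; adjusted p = 0.0022, edgeR). Without replicate 1 its slope turned to -0.11. E430024P14Rik, which contains Tagap, a gene of a T-cell activation GTPase-activating protein, had 45.5, 15.5 and 15.2 and a slope of 0.79 ± 0.16 (SE; adjusted p = 0.00105, edgeR). Without replicate 1 that slope was -0.03, so for both genes the call rests on replicate 1.

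Gm16712 had 44.3, 14.6 and 23.4 CPM and a slope of 0.80 ± 0.15 (SE; adjusted p = 3.83e-04, edgeR), and its partner Ebi3 a slope of 0.73 ± 0.24 (SE; adjusted p = 0.048, edgeR). AC119228.1 had 498, 175 and 246 CPM and a slope of 0.75 (adjusted p = 1.21e-04, edgeR), and Cd274 one of 0.51 (adjusted p = 0.0105, edgeR). In both pairs the gene and its partner passed the test in the same direction. The other called genes were Gm15356, 4930453C13Rik, Gm15965, Gm7480, Gm15261, Gm10634, Gm26740, Gm16185, Gm17056, 4933423P22Rik, Gm29361, Zfas1 and Zeb2os, with slopes from 0.77 down to 0.45. In DESeq2 3 of these 13 were also called, Gm15356, Gm7480 and Gm15965. Without replicate 1 the slopes of 13 of the 20 called genes changed by over 1.5-fold and those of 2 changed sign; the other 5 (Gm47079, Gm47917, Gm16712, Gm15965 and Gm10634) stayed within 1.5-fold. Without it the slope was 0.21 for Gm15356, 0.23 for 4930453C13Rik, 0.31 for Gm7480 and 0.18 for 4933423P22Rik, so most of the calls rest largely on replicate 1.

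Of the 84 distinct partners tested, 9 were called higher with more RNA (Bcl2a1d, Cd274, Ddhd1, Ebi3, Ifrd1, Lpcat2, March1, Slc25a36 and Tagap) and 4 lower (Igf2r, Nav1, Psd3 and Rassf1), against 5 and 0 in DESeq2. Over all genes tested, 4.71% were called higher and 3.09% lower, and among those of at least 200 counts 7.07% and 4.59%. The partners were not chosen by count. Their lower calls are near the background, and their higher calls were not tested against it. Of the 18 called antisense genes whose partner was tested, 6 had a called partner (AC119228.1, E430024P14Rik, Gm10634, Gm15356, Gm16185 and Gm16712) and 16 had a slope above that of the partner, with no test of the difference. Gm10634 was one of the exceptions: its slope was 0.57 ± 0.15 (SE) and that of Bcl2a1d 1.20 ± 0.17 (SE). The 18 genes were picked by their own slope and their partners were not, so the count of 16 follows largely from that choice. Over 86 pairs the slopes had a Pearson r of 0.45 and a Spearman rho of 0.47, as a description over pairs that share the same 3 libraries.

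**Figure D5:**
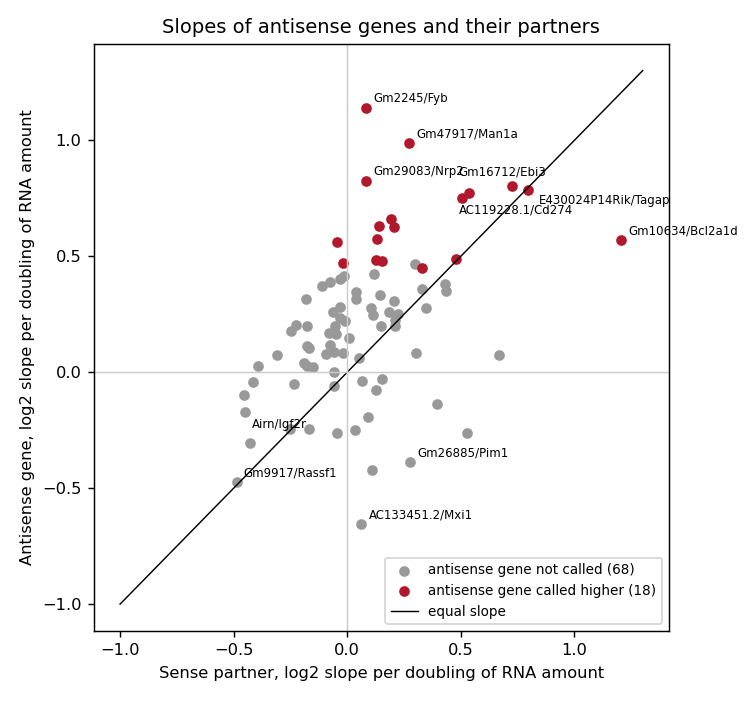
Fitted log2 slope per doubling of RNA amount of each antisense gene against that of its partner, for 86 pairs tested, with called antisense genes in red and a line of equal slope. Of the 18 red points 16 lie above the line, and Gm10634 lies far to the right of it. The red points were picked by the slope of the antisense gene, which by itself favours a place above the line.

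Some pairs pointed in opposite directions without passing the test on the antisense side. Gm7008 had a slope of -0.26 ± 0.17 (SE; adjusted p = 0.35, edgeR) while its partner Ifrd1 was called higher, at 0.53 ± 0.14 (SE; adjusted p = 0.018, edgeR). Without replicate 1 the slope of Gm7008 was 0.23, so the opposite direction rests on that library. Gm26885 had 37.5, 64.2 and 60.8 CPM and a slope of -0.39 ± 0.15 (SE; adjusted p = 0.10, edgeR), and Pim1 a slope of 0.28 (adjusted p = 0.18, edgeR). Without replicate 1 the slope of Gm26885 was -0.08. The difference between the slopes of a pair was not tested. The 5 genes with a lower value at an unadjusted p under 0.05 were AC133451.2 inside Mxi1, Gm9917 facing Rassf1, Gm26759 facing Irf2bp2, Gm26885 and Gm15991 inside Psd3. The lowest slope, -0.65, was that of AC133451.2, with 4.66, 12.6 and 19.5 CPM and an adjusted p of 0.12 in edgeR. Rassf1 and Psd3 were themselves called lower.

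The second set of transcript tables, with kallisto-type columns, gave TPM within 2-fold of these values for 88 of the 97 genes and over 2-fold higher for 9. Zeb2os differed most, at 966, 421 and 604 TPM in that table against 153, 69.9 and 100.3 TPM. Gm20234 had 553, 260 and 298 TPM there, and Airn 201, 159 and 142 TPM. The level of these 3 genes relative to their partners thus depends on the table. Because the expected counts chose the 97 genes, these shares say nothing about other antisense genes. By the kallisto-type counts 335 antisense genes met the same minimum.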

How the data were processed

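Chromatin-associated, ribosomal RNA-depleted total RNA was measured in 3 libraries of 1 group. The authors deposited expected counts and TPM for each gene in tables with RSEM-type columns, per the file headers, and estimated counts and TPM for each transcript in tables with kallisto-type columns. Assembly mm10 and annotation M21 are named in the deposited notes, and the aligner, tool versions and strand setting are not stated there, in the labels or in the headers. TPM was recomputed from expected counts and effective lengths over genes of at least 300 nt, since short genes distort the scale, with a pseudocount of 1 in ratios. Expected counts were rounded for edgeR 4.0.16 (quasi-likelihood test, TMM, low-count filter, log2 RNA amount as a term, Benjamini-Hochberg adjustment over all 14108 genes tested) in R 4.3.3, and called at an adjusted p under 0.05. The procedure was tested on simulated data with slopes of 1 log2 unit per doubling of RNA, up or down. Most called slopes here were smaller, so the simulation does not cover them. Depth was 13318787 to 19162053 counts, and a floor of 3 counts corresponds to 0.157 to 0.225 CPM, for counting error only. Partners, exons and positions came from GENCODE M21. Genes named in the text were the 10 highest by TPM, those with a listed partner, the 5 highest and 5 lowest ratios, the 6 largest called slopes in each direction, those at the count limit and known antisense RNAs; Tug1, the 20 called genes and the 5 genes of lower value were named after their values were seen. The antisense genes and the gene lists were chosen with earlier results of these data known. Alternatives were DESeq2 1.42.0, other size factors, no filter, the kallisto-type tables, other partners and count minimums, and leaving out each replicate.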

Additional observations from a re-analysis of the deposited data

How the results depend on the processing

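The number of antisense genes that met the rule was 188 at a mean count of at least 100, 48 at 400 and 335 from the kallisto-type counts, and 95 to 102 when 1 replicate was left out. The number called higher with more RNA was 20 in edgeR, 9 in DESeq2 and 8 from the kallisto-type counts, and 1 of 7 among genes with at least 90% of exon bases outside opposite-strand genes, a split chosen after seeing the data. Partners called higher numbered 5 in DESeq2 and 3 from the kallisto-type counts; partners called lower numbered 0 in DESeq2, 2 with relative log expression factors, 2 without the filter and 1 from the kallisto-type counts. Antisense genes at or above their partner numbered 15 against the highest overlapping partner, 17 by kallisto-type TPM and 21 on CPM without gene length. They numbered 6 among those with no exon overlap, a smaller set of 36, and 19 to 20 when 1 replicate was left out. The median log2 ratio to the partner was -2.19 on CPM without gene length, -1.68 against the highest overlapping partner and -1.59 to -1.51 when 1 replicate was left out. A divergent partner was found for 1 gene within 10000 bases. The sign of the slope changed for B230319C09Rik (-0.0845) and Gm45515 (0.0278) from the kallisto-type counts, and for Gm29083 (-0.11) and E430024P14Rik (-0.0314) without replicate 1, and the ranges when 1 replicate was left out were -0.109 to 1.723 and -0.0314 to 1.581. Of the 31 genes named by the rule, 11 changed sign without replicate 1, 9 of them not called (F630028O10Rik, Gm20234, Gm7008, 4930430E12Rik, Kcnq1ot1, 1700019L13Rik, Etohd2, Gm37305 and Gm45515), 2 without replicate 2 (Gm26982 and Airn) and 0 without replicate 3; over all 97 genes 44, 8 and 0 did. Replicate 3 had the middle RNA amount, midway between the others in log2, so leaving it out could hardly move a fitted slope. The 0 without replicate 3 follows from that design and says nothing about that library. The cause of the shifts without replicates 1 and 2 was not tested. Calls could not be repeated with 1 replicate left out, because 2 libraries leave no residual degrees of freedom, so slopes without a test were given. No paired analysis was possible because the series holds 1 group. With 1 residual degree of freedom, small slopes were not detectable at this depth and number of libraries.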
